A study of Homo sapiens with 20 samples.

Results

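The numbered zinc finger genes are those whose symbol is ZNF followed only by digits. The expression files of the HL60 series held 476 such symbols among 28051 named genes. Of these, 244 had a mean normalized count of at least 300 over all 12 RNAseq libraries, and ZNF441, ZNF20 and ZNF625 were added by name whatever their level, which gave 247 genes. The 244 were thus chosen by their mean normalized count over the 12 libraries, whatever the genotype or treatment. A gene high in 1 genotype could pass through the libraries of that genotype. ZNF300 reached its mean of 322 through the HK3-null libraries alone. ZNF93 was under 300 in every Cas9 control library. Most Cas9 control libraries of ZNF783 and most HK3-null libraries of ZNF618 were under 300 too. The members just above the cut were ZNF704 at a mean of 308.1, ZNF25 at 308.5 and ZNF493 at 309.3, and the genes just below it were ZNF782 at 299.4, ZNF440 at 297.9 and ZNF273 at 297.7. The 3 genes added by name had been chosen for their genotype pattern, so their values are given as a description with no test.

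HL60 is a human acute myeloid leukemia line. The cells had been transduced with a lentiviral CRISPR/Cas9 vector and selected with puromycin. They carried either Cas9 alone (Cas9 control) or a guide against HK3, the hexokinase 3 gene (HK3-null), and were kept for 36 h in 1 µM all-trans retinoic acid (ATRA) or in its solvent, 0.01% DMSO. Each of the 4 combinations had 3 RNAseq and 2 ATACseq libraries, 12 and 8 in all. The study's methods call the libraries biological replicates and describe growing single clones after selection. The titles give every HK3-null library the same name, KO-2G. The sources used here do not say outright that KO-2G is 1 clone. Effects of HK3 loss and differences between clones cannot be told apart here, and a p-value measures only the spread between these libraries. The counts of HK3 itself did not check the labels, since a small edit need not lower RNA: HK3 had 90, 65 and 105 counts in the Cas9 control DMSO libraries against 344, 302 and 346 in the HK3-null ones, and 1305, 1298 and 1850 against 1384, 1285 and 1975 in ATRA. All 8 myeloid markers were present in every group, and the summed counts of 5 ATRA response genes were 33 to 39 in Cas9 control DMSO, 509 to 573 in HK3-null DMSO, 7189 to 8056 in Cas9 control ATRA and 38532 to 47943 in HK3-null ATRA. Most of the last difference was TGM2, with means of 1047 and 33889 counts, while ITGAM had 1134 and 1739 and CD38 5509 and 7178, the latter not called. The summed counts of 12 markers of other lineages were 61 to 497 in Cas9 control DMSO, 83 to 92 in HK3-null DMSO, 102 to 181 in Cas9 control ATRA and 141 to 160 in HK3-null ATRA, with MS4A1 at 0 in every library. The highest sum was that of Cas9 control DMSO replicate 1, where COL1A1 had 321 counts and COL1A2 105, against 7 or fewer in the other libraries of that group. CD3E, at 12 counts or fewer, was called higher with genotype in both treatments, KRT18, at 28 or fewer, in ATRA, and CD79A was called higher with ATRA in both genotypes. The part of these markers in the results below was not tested, beyond leaving out each library in turn. In bulk RNA, fewer cells of a kind and less RNA per cell cannot be told apart.

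C2H2 zinc fingers are small folds around a zinc ion that read a few bases of DNA each, and arrays of them give a protein its target sequence. Many numbered ZNF proteins carry a KRAB domain, which recruits TRIM28 and, through it, the histone methyltransferase SETDB1 and heterochromatin proteins. This machinery silences transposable elements and keeps imprinted loci marked. These genes arose by repeated duplication and lie in clusters, most of them on chromosome 19. Others bear the ZNF name for a zinc finger alone and act in ribosome assembly, RNA binding or chromosome segregation. Near-identical copies within a cluster can share reads, so the counts of single cluster genes are less certain than those of genes with unique sequence.

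A total of 108 of the 244 members by level lay on chromosome 19 and 20 on chromosome 7. Their mean normalized counts ran from 308 to 8390 with a median of 662, and 71 reached 1000. The counts were not divided by gene length, so they do not rank the genes by molecules. ZNF207, which binds microtubules and the spindle checkpoint protein BUB3, drew the most counts with a mean of 8390, and was followed by ZNF146 at 5398, ZNF24 at 4794, ZNF598 at 4087 and ZNF384 at 3161. The 244 genes together took 0.752% of all normalized counts. Their share was 0.728% ± 0.032 (SD, n = 3) in Cas9 control DMSO, 0.780% ± 0.026 in HK3-null DMSO, 0.757% ± 0.034 in Cas9 control ATRA and 0.747% ± 0.020 in HK3-null ATRA. The lowest HK3-null DMSO library, at 0.751%, lay below the highest Cas9 control DMSO library, at 0.754%, so the shares overlapped between the genotypes.

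The clearest genotype patterns were those of genes read in the libraries of 1 genotype and nearly absent from the other. ZNF441 had 224, 227 and 190 counts in Cas9 control DMSO, 358, 312 and 306 in Cas9 control ATRA, and 0 in all 6 HK3-null libraries. Its mean of 214 ± 20.6 in Cas9 control DMSO was at least 73.6-fold above the HK3-null level, and its mean of 325 ± 28.4 in ATRA at least 105-fold, when a floor of 3 reads per library stands for 0. ZNF20 and ZNF625 had almost no counts in either genotype. ZNF20 had 3, 1 and 0 counts in Cas9 control DMSO, 1, 1 and 0 in Cas9 control ATRA and 0 in every HK3-null library. ZNF625 had 2, 0 and 0 counts in Cas9 control DMSO, 1, 1 and 0 in HK3-null DMSO, 0, 0 and 1 in Cas9 control ATRA and 0 in HK3-null ATRA. These counts sit at or under the floor, so no fold is given for ZNF20 or ZNF625. The 2 genes also share an annotated read-through gene, whose counts are not given here. How reads over shared exons were counted is not known, so few counts need not mean silence.

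ZNF300, a KRAB gene on chromosome 5, showed the opposite arrangement. It had 5, 0 and 0 counts in Cas9 control DMSO against 685, 676 and 593 in HK3-null DMSO, and 0, 1 and 0 in Cas9 control ATRA against 679, 672 and 558 in HK3-null ATRA. Treated as Poisson counts, the summed libraries gave a ratio of 391 in DMSO (95% counting interval 167 to 1205) and of 1909 in ATRA (342 to 75440). The first rests on 5 counts and the second on 1 count in the Cas9 control libraries, so the size of either is poorly fixed, and both intervals cover counting error only. Its presence among the members rests on the HK3-null libraries, so its difference is a description.

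The promoters of ZNF441, ZNF300, ZNF20 and ZNF93 are shown because each lay whole inside an ATACseq region that differed between the genotypes (described further on). In addition, ZNF93 had the largest rise with genotype among members read in both genotypes. Each window runs from 250 bases before the RefSeq start site to 50 bases after it, 5′ to 3′ on the strand of the gene, in GRCh38.p14, with CG dinucleotides in capitals. The ZNF441 window is chr19:11766750-11767049 on the plus strand, that of ZNF300 chr5:150904931-150905230 on the minus strand, that of ZNF20 chr19:12140301-12140600 on the minus strand and that of ZNF93 chr19:19900696-19900995 on the plus strand.
ZNF441: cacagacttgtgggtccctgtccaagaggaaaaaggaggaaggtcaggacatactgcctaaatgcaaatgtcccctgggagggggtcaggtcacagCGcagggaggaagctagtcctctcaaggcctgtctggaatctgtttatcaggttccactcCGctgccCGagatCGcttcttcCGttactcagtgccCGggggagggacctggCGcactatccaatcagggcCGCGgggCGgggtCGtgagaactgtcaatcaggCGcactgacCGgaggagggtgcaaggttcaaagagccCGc
ZNF300: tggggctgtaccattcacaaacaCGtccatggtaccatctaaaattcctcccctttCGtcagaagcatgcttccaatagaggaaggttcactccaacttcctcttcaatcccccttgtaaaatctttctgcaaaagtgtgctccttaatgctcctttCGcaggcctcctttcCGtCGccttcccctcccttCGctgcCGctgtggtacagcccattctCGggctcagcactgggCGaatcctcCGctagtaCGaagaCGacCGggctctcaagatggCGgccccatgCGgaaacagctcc
ZNF20: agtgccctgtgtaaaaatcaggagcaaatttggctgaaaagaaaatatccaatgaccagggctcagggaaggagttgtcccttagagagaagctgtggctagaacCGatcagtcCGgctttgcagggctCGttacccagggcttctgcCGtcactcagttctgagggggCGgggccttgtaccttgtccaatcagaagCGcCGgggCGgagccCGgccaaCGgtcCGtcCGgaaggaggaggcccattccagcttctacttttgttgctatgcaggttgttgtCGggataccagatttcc
ZNF93: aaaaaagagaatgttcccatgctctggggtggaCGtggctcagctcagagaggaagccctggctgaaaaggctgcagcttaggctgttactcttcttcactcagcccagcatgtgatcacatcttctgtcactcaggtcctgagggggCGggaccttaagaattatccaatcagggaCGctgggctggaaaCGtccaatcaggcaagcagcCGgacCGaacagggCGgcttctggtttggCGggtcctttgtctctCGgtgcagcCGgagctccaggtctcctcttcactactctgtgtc

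The ZNF441 window held 14 CG dinucleotides, that of ZNF300 15, that of ZNF20 13 and that of ZNF93 10. As many or more were found in 50.3%, 48.9%, 51.7% and 56.4% of all 27305 RefSeq promoter windows. A window was on hand for 213 of the 247 members, and these had a median of 23 CG dinucleotides, against 14 over all windows and 26 over the windows of tested genes. CCAAT, the motif of the NF-Y factor, was found on either strand in all 4 printed windows and in 47.4% of member windows, against 35.7% of all windows and 37.0% of those of tested genes. CCGGAAG, a motif of ETS factors, was found in the ZNF20 window, in 45.1% of member windows, in 10.7% of all windows and in 20.1% of those of tested genes. The CRE motif TGACGTCA was in 12 member windows (5.63%), in 1.98% of all windows and in 3.28% of those of tested genes. These are letter matches in a fixed window and say nothing of binding.

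**Figure D1:**
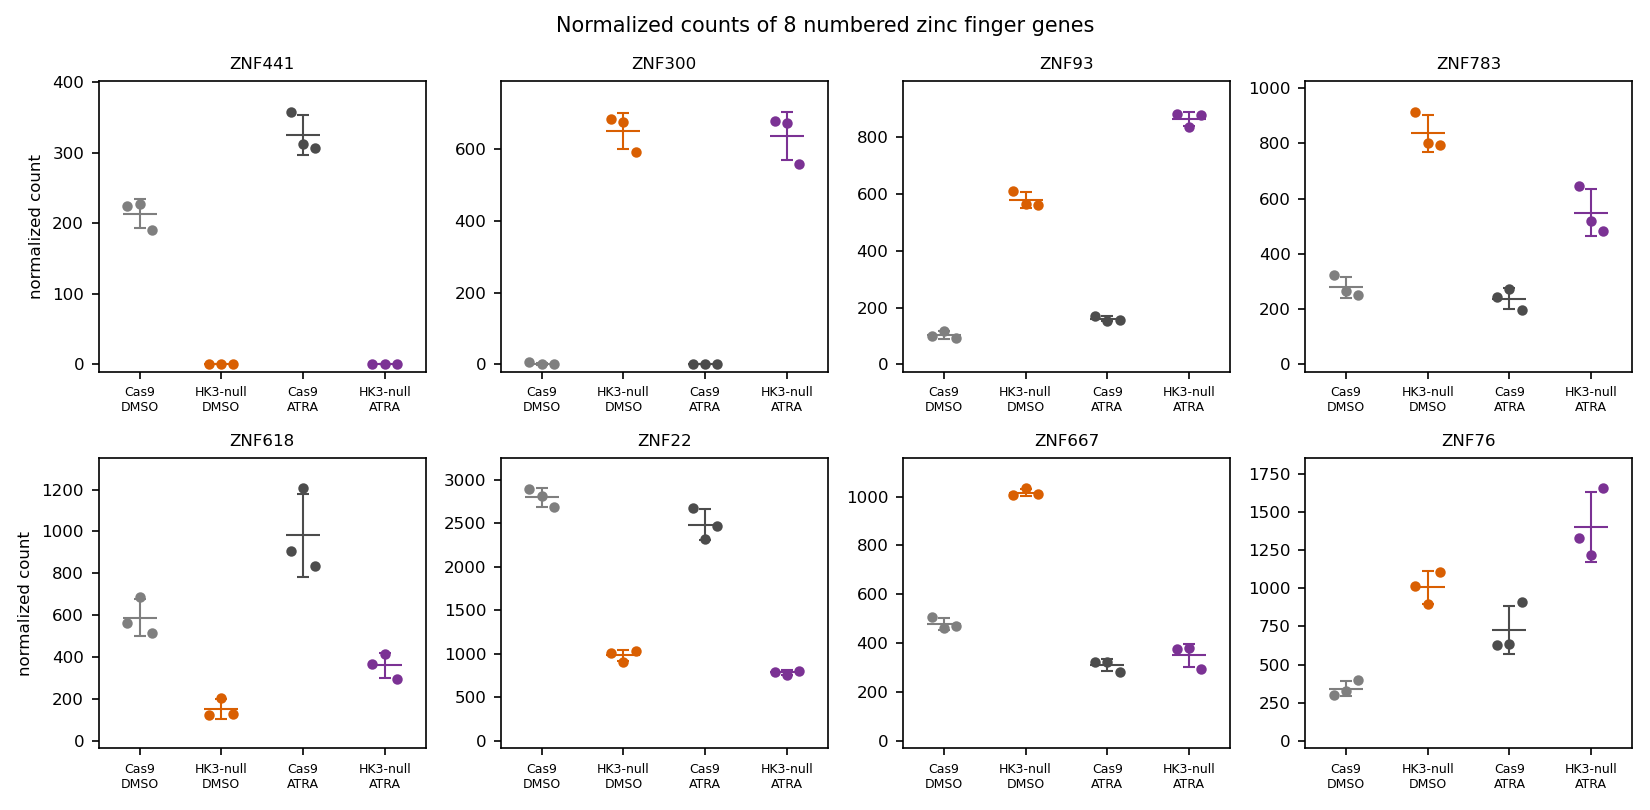
Normalized counts (vertical axes, linear, each panel with its own range) of 8 members in the 4 groups, with 1 point per RNAseq library and bars for the mean and SD of 3. ZNF441 is at 0 in the 6 HK3-null libraries and ZNF300 at 5 or less in the 6 Cas9 control libraries, while ZNF667 is high in HK3-null DMSO (1006 to 1034) and lower in the other 3 groups (283 to 505).

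On and off patterns of this kind went beyond the members. Among all 476 numbered ZNF genes, 93 had 3 or fewer counts in every library of at least 1 group, and 13 of these had a mean of 30 or more in another group. In 9 of the 13 the HK3-null libraries were the ones with counts, and in 4 the Cas9 control ones. ZNF441 and ZNF300 were the members among them, and 9 of the 13 lay on chromosome 19, which also holds 108 of the 244 members by level. The same rule was not run over all named genes, so these counts are no result about numbered ZNF genes. Besides ZNF300, the genes read in HK3-null libraries were ZNF85, ZNF132, ZNF486, ZNF57, ZNF555, ZNF677, ZNF678 and ZNF695. ZNF85 in the chromosome 19 cluster had 0, 1 and 0 counts in Cas9 control DMSO and 159, 180 and 146 in HK3-null DMSO. ZNF57 had 1, 0 and 0 counts against 187, 207 and 187. The genes read in Cas9 control libraries besides ZNF441 were ZNF711 on chromosome X, with 79, 90 and 68 counts against 1, 0 and 0 in DMSO, and ZNF30 and ZNF792, which lie near each other on chromosome 19. Each of the 13 kept its side in ATRA: the genotype with the counts in DMSO was the genotype with the counts in ATRA.

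ZNF441, ZNF20 and ZNF625 belong to 1 cluster at the short arm of chromosome 19, and their neighbours moved in both directions. Within 1 Mb of them lay 23 other numbered ZNF genes, 6 of them members and 15 of them tested. In DMSO, 1 neighbour was higher in HK3-null cells and 4 were lower, or 33.3% of the 15, close to the 32.1% of all genes called in that comparison. ZNF627, a member, rose from 251, 250 and 246 to 695, 717 and 697 counts (2.82-fold, adjusted p = 1.6e-07). The 4 neighbours that fell were ZNF823 (−1.19), ZNF440 (−0.79), ZNF44 (−1.36) and ZNF709 (−1.50), all below the level of members. ZNF44 went from 188, 216 and 206 counts to 83, 71 and 84. Between ZNF440 and ZNF44, ZNF700 and ZNF136 had log2 fold changes of 0.47 and 0.25 and were not called.

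About as many members were called with genotype in DMSO as in ATRA. A gene was called where the adjusted p of limma, Benjamini-Hochberg over all 13256 genes tested, was under 0.05 and the fold change at least 1.5. Of the 244 members by level, 33 were higher (ZNF300 included) and 19 lower in HK3-null than in Cas9 control cells in DMSO, or 21.3%, beside 32.1% of all genes (17.4% higher, 14.7% lower) and 26.2% of the other genes with a mean of at least 300. In ATRA, 31 were higher and 20 lower, or 20.9%, beside 36.5% of all genes (18.8% higher, 17.6% lower) and 31.4% of the other genes at that level. The median log2 fold change of members was 0.15 in DMSO and 0.10 in ATRA, where that of all genes was 0.00 and 0.01. Without the fold threshold, 81 members were higher and 32 lower in DMSO, beside 55.0% of all genes (27.9% higher, 27.1% lower), and 70 and 49 in ATRA, beside 59.1% (29.6% higher, 29.5% lower). The lean to higher depended on the scaling: quantile normalization gave 24 higher and 21 lower in DMSO and 25 and 29 in ATRA, and subtracting the median of each chromosome gave 18 and 12 in DMSO and 16 and 23 in ATRA.

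Both genotype comparisons use separate libraries for each treatment. A total of 38 members were called in both, 22 higher and 16 lower, which is 73.1% of those called in DMSO and 74.5% of those called in ATRA. The 14 members called in DMSO alone and the 13 called in ATRA alone all had the same sign in the other treatment. The overlap was not counted over all genes, so these shares are no result about the members.

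Whole chromosomes moved with genotype, and the members on them moved too. The median log2 fold change of all tested genes in DMSO was −0.75 on chromosome 5, 0.52 on chromosome 6, 1.10 on chromosome 8, −0.57 on chromosome 13 and −0.94 on chromosome 15. Of the 23 members on these 5 chromosomes, 20 were called in DMSO (87.0%, 13 higher and 7 lower), beside 62.0% of all genes there and 66.1% of those with a mean of at least 300. Of the 221 members elsewhere, 32 were called (14.5%, 20 higher and 12 lower), beside 25.5% of all genes there and 17.3% of those at that level. All 9 members of chromosome 8 were higher in HK3-null cells in DMSO and 6 of them were called higher in ATRA. In contrast, all 5 members of chromosome 15 had lower values in HK3-null cells in both treatments, and 4 of them were called lower in each. Chromosome copy number was not measured in these libraries. Without chromosomes 5, 6, 8, 13 and 15, the ATRA comparison gave 35 called members of 221 (15.8%), beside 30.7% of all genes there and 23.3% of those at that level.

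**Figure D2:**
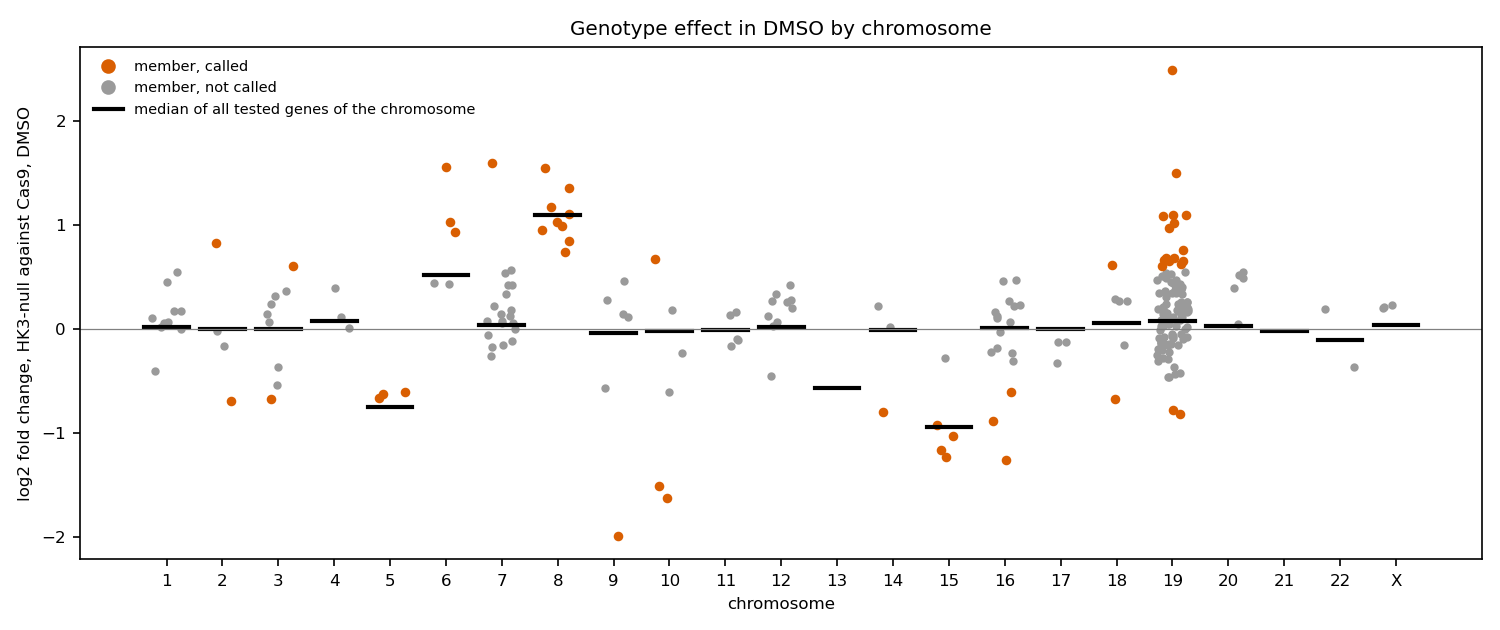
Log2 fold change of HK3-null against Cas9 control in DMSO (vertical axis) for 243 members by chromosome (horizontal axis), with called members in orange, others in grey and a black bar at the median of all tested genes of the chromosome. ZNF300 on chromosome 5 is left out because its fold rests on 5 or fewer counts in Cas9 control cells. The members of chromosome 8 lie around its median of 1.10 and 4 of the 5 on chromosome 15 around −0.94.

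On chromosome 19, whose tested genes had a median of 0.07, called members were nearly all higher. In DMSO 15 members of 108 were higher and 2 lower in HK3-null cells, and in ATRA 13 were higher and 1 lower. Among the 496 other genes of chromosome 19 with a mean of at least 300, 64 were higher and 31 lower in DMSO, and 73 and 55 in ATRA. The medians were 0.18 and 0.17 for the members and −0.01 and 0.01 for those other genes. No such background was counted for single blocks, so the block counts that follow are no result about the members. The block from 19.7 to 24.1 Mb, which runs from ZNF101 to ZNF254 and holds many primate-specific KRAB genes, had 35 numbered genes and 13 members, of which 5 were called higher in DMSO and 12 had a positive change. ZNF93, ZNF100, ZNF506, ZNF430 and ZNF431 were the 5. ZNF506 rose from 238, 270 and 241 to 495, 560 and 533 counts, and ZNF430 from 300, 307 and 271 to 651, 642 and 580. The block from 51.6 to 53.6 Mb had 20 members, of which 3 (ZNF83, ZNF28 and ZNF160) were called higher. The block nearest the telomere of the long arm, from 55.5 to 58.5 Mb, had 35 members, with 4 called higher and 1 lower and a median of −0.05.

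ZNF93, which represses LINE-1 elements, had the largest rise among members read in both genotypes. Its counts were 99, 119 and 94 in Cas9 control DMSO, 612, 564 and 561 in HK3-null DMSO, 170, 154 and 156 in Cas9 control ATRA and 882, 837 and 878 in HK3-null ATRA. No HK3-null library overlapped a Cas9 control library, which the rule for naming members required within each treatment. Each Cas9 control library was under the level cut of 300, so ZNF93 is a member through its HK3-null libraries. The log2 fold change with genotype, 2.48 ± 0.10 in DMSO and 2.44 ± 0.10 in ATRA, is therefore given as a description. ZNF93 also rose with ATRA, by 0.63 in Cas9 control cells and by 0.58 in HK3-null cells, and the rise in HK3-null cells fell short of a fold change of 1.5.

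ZNF783 on chromosome 7 rose from 322, 264 and 249 counts in Cas9 control DMSO to 914, 802 and 793 in HK3-null DMSO, and from 244, 273 and 196 to 646, 520 and 481 in ATRA. The genotype effect was 1.59 ± 0.15 in DMSO and 1.21 ± 0.15 in ATRA. ZNF76, a paralog of the promoter-binding activator ZNF143, lies on chromosome 6 and had 303, 325 and 400 counts in Cas9 control DMSO against 1015, 895 and 1108 in HK3-null DMSO. In ATRA it had 631, 637 and 912 counts against 1328, 1218 and 1657. Its genotype effect was 1.56 ± 0.17 in DMSO and 0.96 ± 0.17 in ATRA, and ATRA raised it in Cas9 control cells, while its ATRA change in HK3-null cells was 0.47 and under a fold change of 1.5. ZNF7 and ZNF706, both on chromosome 8, rose by 1.55 and 1.35 in DMSO and by 1.41 and 1.46 in ATRA. After the chromosome 8 median was subtracted, ZNF7 stood at 0.45 and ZNF706 at 0.26 in DMSO, both under a fold change of 1.5.

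The members that fell furthest lay mostly outside the shifted chromosomes. ZNF618 on chromosome 9 fell from 562, 688 and 514 counts in Cas9 control DMSO to 121, 204 and 129 in HK3-null DMSO, and in ATRA from 905, 1206 and 834 to 367, 416 and 297. Its genotype effect was −1.99 ± 0.22 in DMSO and −1.44 ± 0.22 in ATRA, and ATRA raised it in both genotypes. Most of its HK3-null libraries were under the level cut, so the genotype effect is a description. ZNF511 and ZNF22, both on chromosome 10, fell to about the same extent in both treatments. ZNF511 had 3051, 2835 and 2672 counts in Cas9 control DMSO and 948, 953 and 876 in HK3-null DMSO, with effects of −1.62 and −1.63. ZNF22 had 2888, 2817 and 2682 counts against 1012, 904 and 1026, with effects of −1.51 ± 0.07 and −1.66 ± 0.07. For each of ZNF618, ZNF511 and ZNF22 the lowest Cas9 control library was above the highest HK3-null library within each treatment. The rule for naming members required this, so it adds nothing to the calls. ZNF629 on chromosome 16 fell by 1.26 in DMSO and by 1.22 in ATRA on the log2 scale.

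ZNF609, the host gene of a well-known circular RNA, was among the 5 largest falls in each treatment but moved with its chromosome. Its counts were 2433, 1748 and 3138 in Cas9 control DMSO and 919, 889 and 1270 in HK3-null DMSO, a change of −1.23 ± 0.23 (adjusted p = 0.00079). With the chromosome 15 median subtracted the change was −0.29 (adjusted p = 0.32) in DMSO and −0.43 (adjusted p = 0.13) in ATRA, and the call was lost. ZNF592, ZNF106 and ZNF770, also on chromosome 15, fell by 1.16, 1.02 and 0.92 in DMSO and stood at −0.22, −0.08 and 0.02 after the same step.

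Fewer members were called with ATRA than with genotype. In Cas9 control cells 13 members rose and 7 fell, or 8.20%, beside 19.0% of all genes (11.2% higher, 7.79% lower) and 16.6% of the other genes at that level. In HK3-null cells 10 rose and 17 fell, or 11.1%, beside 26.6% of all genes (13.6% higher, 12.9% lower) and 25.1% of the other genes at that level. The median log2 fold change of members was 0.06 and 0.03. Without the fold threshold, 85 members passed in Cas9 control cells and 106 in HK3-null cells, beside 41.6% and 49.0% of all genes. Quantile normalization gave 7 higher and 8 lower in Cas9 control cells, so the direction of the balance there depended on the scaling. A total of 12 members were called in both genotypes, 5 rising and 7 falling, which is 60.0% of those called in Cas9 control cells and 44.4% of those called in HK3-null cells. The 8 called in Cas9 control cells alone and the 15 called in HK3-null cells alone all had the same sign in the other genotype. This overlap was not counted over all genes either, so it is no result about the members.

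**Figure D3:**
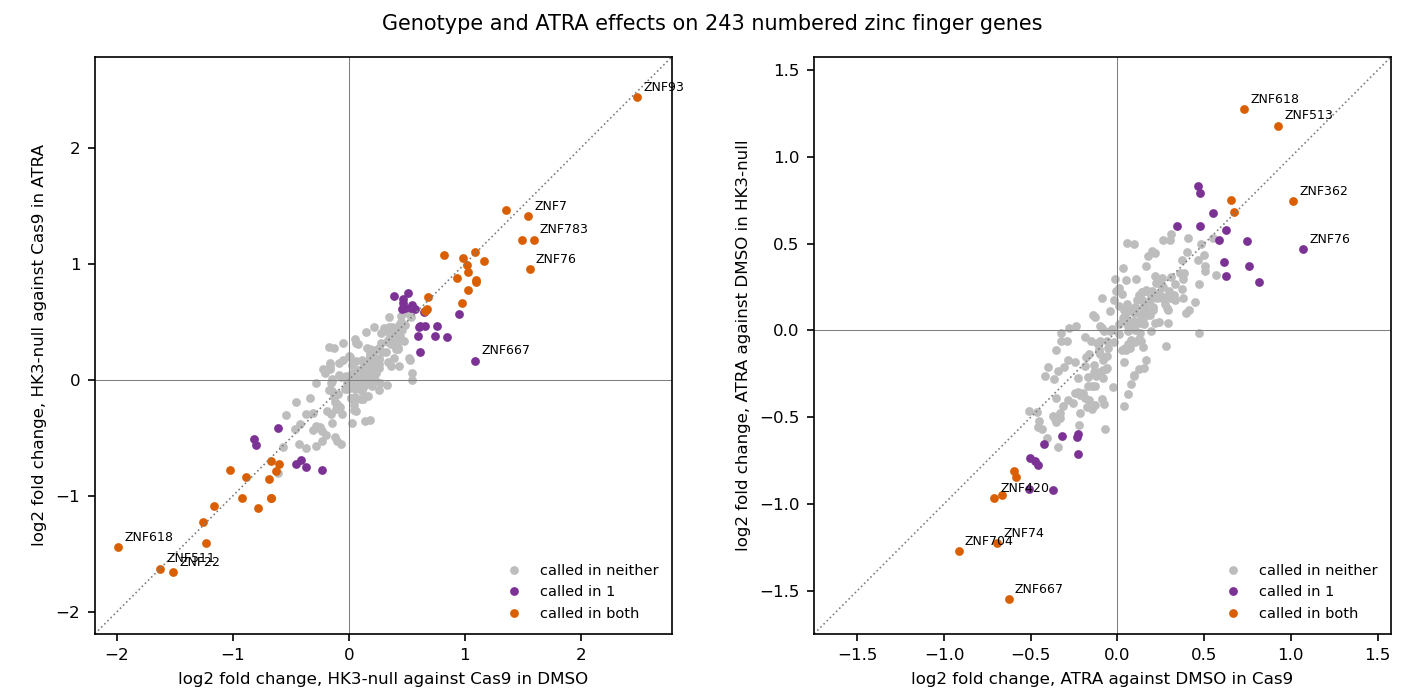
Log2 fold changes of 243 members: on the left HK3-null against Cas9 control in DMSO (horizontal) and in ATRA (vertical), on the right ATRA against DMSO in Cas9 control (horizontal) and in HK3-null cells (vertical). Orange points were called in both comparisons, purple in 1 and grey in neither, and the dotted line marks equal effects. ZNF300 is left out. The left panel spans −1.99 to 2.48 along its horizontal axis and the right −0.92 to 1.07.

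Among the members that rose with ATRA in both genotypes, ZNF513, a gene linked to retinal degeneration, went from 144, 216 and 247 counts in Cas9 control DMSO to 285, 415 and 446 in ATRA, and from 301, 360 and 392 to 735, 880 and 767 in HK3-null cells. The changes were 0.93 ± 0.21 and 1.18 ± 0.21. ZNF362 rose by 1.02 in Cas9 control cells, from 237, 263 and 261 to 453, 604 and 491 counts, and by 0.75 in HK3-null cells. ZNF618 rose by 0.73 and 1.28. ZNF503, a repressor of the developing nervous system, rose from 246, 272 and 343 to 480, 524 and 500 counts in Cas9 control cells (0.82), and in HK3-null cells had a change of 0.28 (adjusted p = 0.11). ZNF70 rose by 0.76 in Cas9 control cells and had a change of 0.37 in HK3-null cells. The difference between genotypes passed for ZNF503 and ZNF70 with the replicate number as a block (adjusted p = 0.024 and 0.047) and not without it (0.11 and 0.30). In HK3-null cells ZNF211 (0.83), ZNF671 (0.79) and ZNF672 (0.75) also rose, and the calls of ZNF671 and ZNF672 were lost without HK3-null DMSO replicate 1 (0.62 and 0.60) or without HK3-null ATRA replicate 3 (0.64 and 0.65).

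Among the members that fell with ATRA in both genotypes, ZNF704 went from 301, 332 and 309 to 164, 211 and 133 counts in Cas9 control cells and from 464, 660 and 470 to 211, 244 and 198 in HK3-null cells (−0.92 ± 0.18 and −1.27 ± 0.18). ZNF420, a KRAB protein that restrains p53, fell from 576, 715 and 625 to 359, 397 and 413 counts in Cas9 control cells and from 591, 755 and 633 to 328, 385 and 299 in HK3-null cells (−0.71 and −0.97). ZNF74 fell by 0.69 in Cas9 control cells, a change that lost its call without any 1 of 7 libraries (−0.50 without Cas9 control ATRA replicate 1), and by 1.23 in HK3-null cells. Members of chromosome 19, which holds 108 of the 244, made up 10 of the 17 that fell in HK3-null cells and 2 of the 7 in Cas9 control cells. In HK3-null cells 3 of the 108 rose and 10 fell. Of the 496 other genes of chromosome 19 with a mean of at least 300, 61 rose and 70 fell there, so the 10 are no result about the members. For the blocks that follow no such background was counted. Of the 35 members in the block from 55.5 to 58.5 Mb, 6 fell and 2 rose in HK3-null cells. In the block from 36.2 to 37.8 Mb, 3 of 9 members fell in HK3-null cells. By contrast, all 13 members of the block from 19.7 to 24.1 Mb had positive ATRA changes in both genotypes, with medians of 0.33 and 0.30, and 1 of them, ZNF93, was called.

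How many members had a genotype effect that differed between DMSO and ATRA depended on the fit. The interaction of genotype and ATRA passed for 4 members of 244 (1.64%), 1 with a higher and 3 with a lower genotype effect in ATRA than in DMSO, beside 9.12% of all genes (4.48% higher, 4.64% lower). With the replicate number as a block, 36 passed (9 higher, 27 lower), beside 21.9% of all genes. ZNF76 (−0.60, adjusted p = 0.0027) and ZNF618 (0.55, adjusted p = 0.018) passed with the block and not without it (adjusted p = 0.16 and 0.34). ZNF667, a KRAB gene at the end of chromosome 19, had the largest difference. It had 505, 462 and 468 counts in Cas9 control DMSO and 1006, 1034 and 1010 in HK3-null DMSO, but 324, 323 and 283 against 376, 378 and 295 in ATRA. The HK3-null DMSO libraries stood apart from the other 9. The genotype effect was 1.09 ± 0.10 in DMSO and 0.17 ± 0.10 in ATRA, and the difference of the effects was −0.92 ± 0.14 (adjusted p = 0.0022). ZNF335, a component of a histone H3 lysine methyltransferase complex, differed by 0.33 (adjusted p = 0.021), with genotype effects of 0.39 in DMSO and 0.72 in ATRA. ZNF277 differed by −0.37 (adjusted p = 0.024), with 0.33 in DMSO and −0.04 in ATRA. ZNF581 differed by −0.37 (adjusted p = 0.0499), with −0.12 and −0.49. Leaving out 1 library gave between 1 and 6 passing members: 1 without Cas9 control DMSO replicate 1, 1 without HK3-null DMSO replicate 2 and 2 without Cas9 control ATRA replicate 1. ZNF667 passed whichever library was left out.

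Of 11 members with roles in RNA and ribosome biology, 3 fell with genotype in DMSO (27.3%, beside 32.1% of all genes, so the share is no result about the list): ZNF346, which binds double-stranded RNA, ZNF622, a factor of large ribosomal subunit maturation, and ZNF106, an RNA-binding protein. All 3 lay on chromosomes 5 or 15, whose medians fell. In ATRA the 3 called lower (27.3%, beside 36.5% of all genes) were ZNF346, ZNF106 and ZNF593. The 2 that fell with ATRA in each genotype were ZNF593, which takes part in assembly of the large ribosomal subunit, and ZNF598. ZNF598 is the ubiquitin ligase that detects collided ribosomes. They are 18.2% of the list, beside 19.0% of all genes in Cas9 control and 26.6% in HK3-null cells. These shares are no result about the list. ZNF593 went from 1736, 1574 and 1600 to 1096, 1082 and 926 counts in Cas9 control cells and from 1259, 1209 and 1227 to 714, 673 and 539 in HK3-null cells. ZNF598 went from 5657, 5268 and 5371 to 3916, 3719 and 3191 counts, and from 5018, 4636 and 4297 to 2894, 2744 and 2334. The changes were −0.66 and −0.95 for ZNF593 and −0.59 and −0.81 for ZNF598. ZNF207 was called in no comparison, with genotype changes of −0.33 in DMSO and −0.15 in ATRA.

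Of 18 members with known roles in transcription or chromatin, 4 rose and 2 fell with genotype in DMSO, or 33.3%, which is near the 32.1% of all genes and no result about the list. Those that rose were ZNF76, ZNF93, ZNF395 on chromosome 8 and ZNF445, a KRAB protein that maintains imprints, which went from 1558, 1844 and 1776 to 2212, 2644 and 3086 counts (0.61 ± 0.16). Those that fell were ZNF219 and ZNF592. ZNF592 and ZNF687 are partners in a ZMYND8 complex. With genotype in DMSO, ZNF592 changed by −1.16, on chromosome 15 with its median of −0.94, and ZNF687 by 0.06. ZNF687 rose with ATRA in Cas9 control cells from 1107, 1106 and 1095 to 1731, 1680 and 1564 counts (0.59). Its change in HK3-null cells was 0.52.

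The machinery that KRAB zinc finger proteins recruit was read in the same comparisons. TRIM28, the corepressor itself, was called in no comparison. It had 25818, 23375 and 23422 counts in Cas9 control DMSO and 20907, 19889 and 17976 in HK3-null DMSO, a change of −0.31 (adjusted p = 0.0039) that passed the test but not the fold threshold. SETDB1 was not called either. Of 42 machinery genes tested, 5 rose and 3 fell with genotype in DMSO, or 19.0% beside 32.1% of all genes. HDAC2 on chromosome 6 rose from 5558, 5405 and 4940 to 12244, 11658 and 11852 counts (1.17), and the DNA methyltransferase gene DNMT3B from 104, 82 and 117 to 272, 268 and 294 (1.47). KIAA1551 (0.90), FAM208A (0.61) and DNMT3A (0.59) were the others that rose. The NuRD subunit gene MTA3 fell from 220, 202 and 208 to 73, 86 and 55 counts (−1.58). MPHOSPH8 (−0.67) and UHRF1 (−0.65) fell too. MPHOSPH8 lies on chromosome 13, whose median was −0.57, and the median of chromosome 6, which holds HDAC2, was 0.52. In ATRA, 4 rose and 3 fell with genotype, or 16.7% beside 36.5% of all genes. ATRA raised DNMT3A and DNMT3B in Cas9 control cells (0.72 and 0.67), or 4.76% of the list beside 19.0% of all genes. In HK3-null cells it raised DNMT3A (1.01) and lowered EHMT2 (−0.90) and SUV39H2 (−0.72), or 7.14% beside 26.6%. The interaction passed for UHRF1 (0.51) and RCOR1 (0.35), or 4.76% beside 9.12% of all genes. With the replicate number as a block it passed for 6 machinery genes, beside 21.9% of all genes.

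ATACseq measures open chromatin by the insertions of a transposase. The deposited ATACseq table held 8286 regions, each with a fragment density per library and a list of nearby genes, and 53 of these regions listed 44 of the members. All 8286 differed between genotypes in ATRA by at least 1.65-fold in their means, so the table is a selection on that contrast, and its values in ATRA are given with no test. The genotype contrast in DMSO used other libraries. There, 48 of the 53 regions were tested and 45 called, 23 higher and 22 lower in HK3-null cells, beside 86.6% of all 6214 regions tested (42.7% higher, 43.9% lower). All 53 had the same sign in DMSO as in ATRA. The 4 regions described for ZNF441, ZNF20 and ZNF300 belong to genes chosen by, or through, their genotype pattern, and without them 41 of 44 tested regions were called (93.2%, 22 higher and 19 lower). The region of ZNF93, a member through its HK3-null libraries, is still among these 44. A table selected for genotype differences gives most of its regions a call, so the share is no result about the members. Only 14 of the 53 listed a single gene, and 24 lay on the shifted chromosomes: all 12 regions of chromosome 8 had higher values in HK3-null cells (median 1.22) and all 10 of chromosome 15 lower values (median −1.45).

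The regions over the starts of ZNF441 and ZNF300 differed in the direction of their RNA. The region chr19:11766717-11767492, which spans the start of ZNF441 and its promoter window, had densities of 145.4 and 135.1 in Cas9 control DMSO and 2.5 and 1.6 in HK3-null DMSO, and of 194.4 and 140.7 against 2.8 and 1.2 in ATRA. Its log2 fold change in DMSO, on log2(density + 1), was −5.54, given as a description since ZNF441 was chosen for its genotype pattern. The region chr19:12139947-12140680 over the start of ZNF20, which also lists ZNF625 and their read-through gene, had 115.7 and 112.9 against 1.0 and 4.4 in DMSO (a log2 change of −5.13) and 142.3 and 106.9 against 1.4 and 1.8 in ATRA. The RNAseq libraries of the same Cas9 control groups, which are separate libraries, had 3 counts or fewer of ZNF20 and of ZNF625. The region chr5:150904698-150905319 over the start of ZNF300 had 1.0 and 2.0 in Cas9 control DMSO and 91.5 and 91.9 in HK3-null DMSO (5.23, a description as well), and 2.7 and 1.3 against 70.8 and 101.0 in ATRA. The region chr19:19900355-19901913 over the start of ZNF93 also lists ZNF253. Its densities were 19.5 and 20.6 in Cas9 control DMSO and 93.8 and 98.7 in HK3-null DMSO. In ATRA they were 28.8 and 23.8 against 92.0 and 112.2. The log2 change in DMSO, 2.21 ± 0.31, is a description as well.

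**Figure D4:**
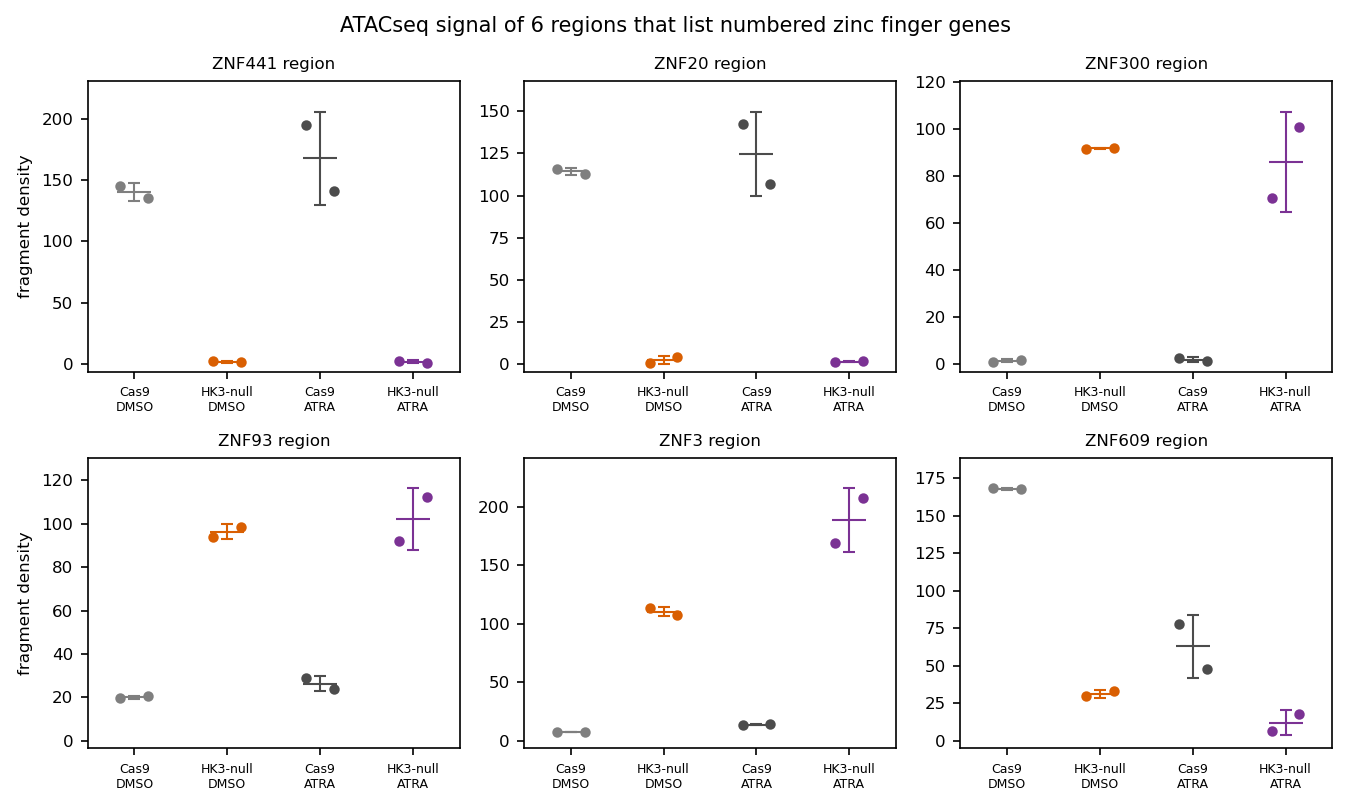
ATACseq fragment density (vertical axes, linear, each panel with its own range) of 6 regions in the 4 groups, with 1 point per library and bars for the mean and SD of 2. The regions of ZNF441 and ZNF20 are at 4.4 or less in all 4 HK3-null libraries, and that of ZNF300 at 2.7 or less in all 4 Cas9 control libraries.

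Of the 53 regions, 9 held the whole promoter window of a member, among members with a window on hand. Apart from those of ZNF441, ZNF20 and ZNF300, all 6 were called in DMSO: ZNF93, ZNF783, ZNF83 and ZNF493 were higher and ZNF22 and ZNF106 lower. The RNA had the same sign in all 6 and was called in 5, the exception being ZNF493 (RNA 0.51). Such agreement was not counted over all genes. Of all regions tested, 86.6% were called, so neither count is a result about the members. ZNF93 is a member through its HK3-null libraries, and ZNF106 lies on chromosome 15, whose median fell. Over ZNF22 the region chr10:45000664-45001800 had 87.0 and 79.2 in Cas9 control DMSO and 27.0 and 30.3 in HK3-null DMSO, a change of −1.50. Other regions lay elsewhere in the gene or up to 28.8 kb outside it, and some belonged to members without a window on hand. The largest falls after ZNF441 and ZNF20 were near ZNF511 (−2.93), ZNF215 (−2.44) and ZNF609 (−2.39).

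Away from promoters, some regions differed between genotypes where the RNA of the gene did not. Of the 35 called regions of members by level not found to hold a promoter window, 29 had RNA of the same sign. On the shifted chromosomes this was 18 of 18, and elsewhere 11 of 17. Neither these counts nor the RNA calls that follow were taken over all genes, so they are no result about the members. RNA was called too for 18 regions of 11 members, all with the same sign, and 16 of the 18 lay on the shifted chromosomes. No window was on hand for the regions of chromosome 8 or for those of ZNF506, ZNF710 and ZNF777. Whether these regions lie at a start site was not checked, so some of the 35 may be promoter regions. The region chr7:100082436-100082906, inside ZNF3 but also listing COPS6 and MCM7, had 7.5 and 7.4 in Cas9 control DMSO and 113.1 and 107.6 in HK3-null DMSO (3.72 ± 0.32), and the RNA of ZNF3 had a log2 fold change of 0.00. The region chr19:37251452-37252117 beside ZNF383 rose by 2.72, where the RNA stood at 0.21. The region near ZNF215 fell by 2.44, where the RNA stood at −0.10.

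**Figure D5:**
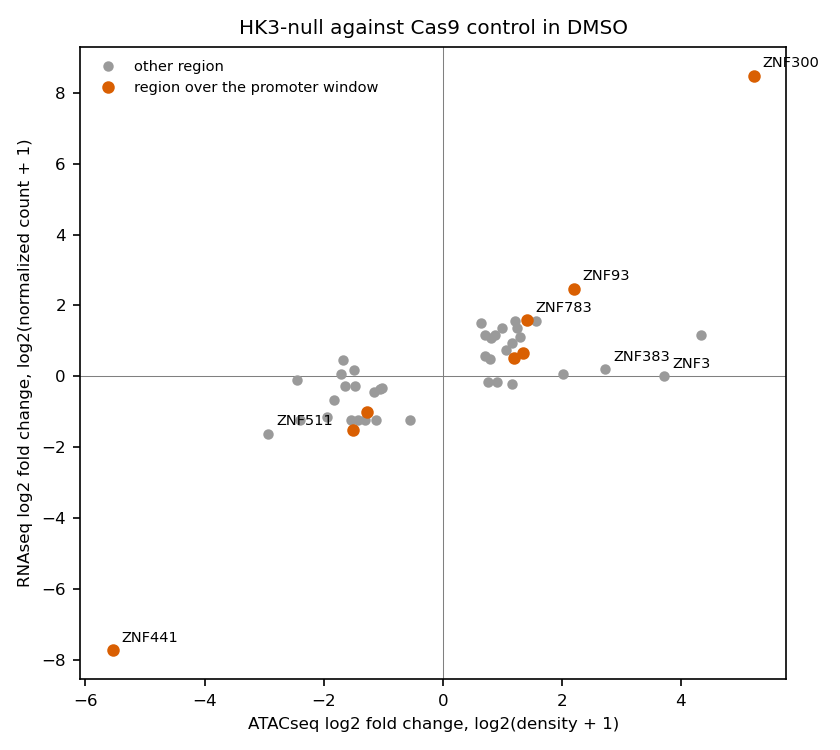
Genotype change in DMSO of 46 regions (horizontal axis, log2 of density + 1) against that of the RNA of the member described (vertical axis, log2 of normalized count + 1), with regions over a promoter window in orange and others in grey. Some grey regions belong to members without a promoter window on hand. ZNF441 lies at the lower left and ZNF300 at the upper right, and ZNF3 and ZNF383 have RNA changes near 0 beside regions at 3.72 and 2.72.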

How the data were processed

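RNAseq and ATACseq libraries of HL60 Cas9 control and HK3-null cells were analysed as deposited. The deposited RNAseq log2 values were made by the authors from reads mapped to hg38 (GRCh38). Tested on the files, each is the log2 of a whole-number count that had been scaled for library size, and a count of 0 stands as the log2 of 0.001. The submitters' processing notes name DESeq2, while the methods text describes RPKM. The values are not divided by gene length. How the RNAseq reads were aligned and counted was not given in the sources used here. The deposited ATACseq signal is a fragment density per region, which the authors made from bwa alignments without duplicates, reduced to the tag number of the smallest library, over merged MACS2 peaks.

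The values were raised from the log scale to give normalized counts, which summed to 29053838 to 31548189 per library. The depth was estimated from the whole numbers missing or doubled among low counts, and ran from 22676521 to 37017581 reads (scaling factors 0.7805 to 1.215). In simulated counts of 28051 genes this step recovered the factors of all 12 libraries and 10 of 10 random factors, but neither of 2 round factors, 0.8 and 1.2. Intervals and the floor of 3 reads cover counting error only. A total of 330 lines without a gene name, at most 0.00926% of a library, were left out.

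limma 3.58.1 in R 4.3.3, with a mean-variance trend, was fitted to the log2 values of all 12 libraries with 1 mean per group, over 13256 genes with a group mean above 3 on the log2 scale in at least 1 group. All 244 members by level passed this filter. The ATACseq fit used log2(signal + 1) of all 8 libraries over the 6214 regions whose mean exceeded 17.1, the 25th percentile. P-values are Benjamini-Hochberg adjusted over all features tested, and a call needed both p under 0.05 after adjustment and a change of 1.5-fold or more. The interaction test had no fold threshold. The fit was tested on simulated data.

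Replicate numbers from the titles paired the RNAseq libraries: deviations from the group means correlated at 0.229 to 0.638 in all 18 same-numbered pairs (median 0.418) and at −0.653 to 0.293 in 36 other pairs, across 10551 genes.

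The members and lists were chosen with earlier results of these data known. Members were named where they were among the 5 largest rises or falls of a comparison without overlap of libraries, among the smallest interaction p-values, among the highest levels, at the level threshold or in 1 of 2 role lists (RNA and ribosome, chromatin and transcription). Promoters are from RefSeq, GRCh38.p14, matched by symbol or synonym. Alternatives covered the value written for 0, the filter, quantile normalization, chromosome medians, the trend, the replicate block, thresholds and leaving out each library.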

Additional observations from a re-analysis of the deposited data

Results flagged for a closer look

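In 4 members the genotype effect differed between ATRA and DMSO by the interaction test of limma. The difference of the log2 genotype effects, ATRA minus DMSO, was −0.92 for ZNF667, 0.33 for ZNF335, −0.37 for ZNF277 and −0.37 for ZNF581. ZNF667 passed without any 1 library, with values from −0.99 to −0.80. ZNF335 no longer passed without Cas9 control DMSO replicate 1 (0.32), HK3-null DMSO replicate 2 (0.30) or HK3-null ATRA replicate 2 (0.29). ZNF277 no longer passed without replicate 1 of Cas9 control DMSO (−0.34), replicate 1 or 2 of Cas9 control ATRA (−0.35 and −0.38) or replicate 2 of HK3-null DMSO (−0.34). ZNF581 no longer passed without 11 of the 12 libraries in turn.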

How the results depend on the processing

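With the replicate number as a block, the RNAseq comparisons called 53 members with genotype in DMSO, 53 with genotype in ATRA, 20 with ATRA in Cas9 control and 29 with ATRA in HK3-null cells, and the block changed the call of none of the 44 values run for named members. For the interaction it raised the passing members from 4 to 36 and the machinery genes from 2 to 6, and ZNF503, ZNF70, ZNF76 and ZNF618 are among the members it added. ATACseq replicate numbers did not pair the libraries (r −0.209 to 0.0539 over 6 pairs), and the block gave 44 called regions.

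A fold of at least 2 left 22 and 20 members with genotype (DMSO and ATRA) and 2 and 5 with ATRA (Cas9 control and HK3-null), and no fold threshold gave 113, 119, 85 and 106. A member level of at least 1000 gave 14, 17, 4 and 5, and 1 for the interaction, since fewer genes are counted. A level of at least 100 gave 47 members with ATRA in HK3-null cells. Subtracting chromosome medians left 30 members with genotype in DMSO. Only 10 called regions listed 1 gene. Leaving out 1 library gave 47 to 57 and 48 to 58 members with genotype, 14 to 21 and 23 to 33 with ATRA, 1 to 6 for the interaction and 35 to 46 regions. The 47 was reached without Cas9 control DMSO replicate 1, the library with COL1A1 counts. Of the 44 values, 43 kept their call under quantile normalization, 43 under log2(count + 1) and 37 under chromosome medians, where ZNF609 and ZNF7 with genotype in both treatments, ZNF706 with genotype in ATRA, ZNF74 with ATRA in Cas9 control cells and the interaction of ZNF581 lost it. With 1 library left out at a time, 498 values kept their call, 30 lost it and none changed sign. Depth limits what can be said of ZNF20 and ZNF625, which lie at the floor, and 2 ATACseq libraries per group limit the precision there.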
